A study of Glycine soja with 4 samples.

Results

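miR396 is a conserved plant miRNA family, and its members were taken here as every sequence that carries the number of miR396 in the small RNA lists and every gene that the degradome lists give as its target. They comprised 2 of the 217 distinct small RNA sequences and 6 of the 78 target genes. The 2 sequences carried 3 names, PN-miR396a-1, PN-miR396b and PN-miR396c, and no p3 or p5 strand of miR396 was listed. The prefix PN marks potentially new miRNAs of this species that were named by their likeness to known ones. Each of the genes is annotated in the study as a growth regulating factor.

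The samples were roots of wild soybean (Glycine soja, genotype BW69), a wild relative of the cultivated soybean Glycine max. Seedlings stood in nutrient solution at pH 4.5 with 50 µmol/L AlCl3 (Al-treated) or 0 µmol/L (Al-free), and the 10 cm of root next to the apex was harvested at 7 times between 1 and 96 h. For each condition the times and plants were pooled into 1 small RNA library and 1 degradome library. There were therefore no replicates and no time course, the tests below compare the reads of 2 libraries and not the conditions, and their intervals cover counting error only.

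In flowering plants, miR396 pairs with the mRNAs of growth regulating factors and guides their cleavage. Growth regulating factors are plant transcription factors with a QLQ domain, which binds a coactivator, and a WRC domain, which binds DNA, and in Arabidopsis they sustain cell division in growing organs. Degradome sequencing reads the 5′ ends of cut mRNAs, so that a gene enters the target list where such ends are found at the site that a miRNA would cut, also where they are not the most frequent ends of the transcript.

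The deposited sequences are shown because the variants differ only at their last base. They are written 5′ to 3′ in the DNA letters of the lists, with the seed (bases 2 to 8) in capitals.
PN-miR396a-1: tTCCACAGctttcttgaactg
PN-miR396b and PN-miR396c: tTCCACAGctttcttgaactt
Both were 21 nt long, and PN-miR396a-1 differed from the sequence of PN-miR396b and c by G21T, where the base of PN-miR396a-1 stands first and position 1 is the 5′ base. Since PN-miR396b and PN-miR396c shared their whole sequence and its count, their reads could not be told apart. The seed was shared by the 2 miR396 sequences and by no other of the 217. Of all the sequences, 78 (35.9%) were 21 nt long, and 40 (18.4%) were 21 nt long with T as the first base, as both miR396 sequences were.

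The stem-loop primer that the study designed to reverse transcribe miR396a is shown because it covers the base that separates the variants. Its 6 bases in capitals are complementary to the last 6 bases of PN-miR396a-1, and 5 of them to those of PN-miR396b and c, with the mismatch at the last base of the miRNA, which faces the first of the capitals.
miR396a stem-loop primer: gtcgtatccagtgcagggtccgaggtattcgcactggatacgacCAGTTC
The forward primer for miR396a held the first 15 bases of both sequences.

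Both miR396 sequences had more reads in the Al-treated library than in the Al-free library, and the rise of PN-miR396a-1 was the larger. PN-miR396a-1 had 676 reads in the Al-treated library and 81 reads in the Al-free library. In RPM (reads scaled to 1000000 clean reads of the library) this was a level of 92.8 RPM in the Al-treated library (95% exact Poisson limits 85.9 and 100.02) and 11.5 RPM (from 9.14 to 14.3) in the Al-free library. The sequence of PN-miR396b and c had 255 reads in the Al-treated library and 126 reads in the Al-free library. Its level was 35.0 RPM (from 30.8 to 39.6) in the Al-treated library and 17.9 RPM (from 14.9 to 21.3) in the Al-free library. The intervals of the libraries did not overlap for either sequence. PN-miR396a-1 was the more abundant variant in the Al-treated library and the less abundant one in the Al-free library.

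The level of PN-miR396a-1 was 8.06 times as high with Al (95% Clopper-Pearson interval from 6.39 to 10.3), a log2 ratio of 3.01 (from 2.68 to 3.36, adjusted exact binomial p = 6.39e-112). That of PN-miR396b and c was 1.95 times as high (from 1.57 to 2.44), a log2 ratio of 0.97 (from 0.65 to 1.29, adjusted exact binomial p = 1.47e-09). The p-values were adjusted over all 86 sequences that reached 10 reads, or 20 reads for predicted candidates, in at least one library. Of the 86, 29 (33.7%) passed as higher with Al and 23 (26.7%) as lower. The study called a miRNA up-regulated at a log2 ratio above 1. With the clean-read scaling used here, PN-miR396a-1 lay beyond this threshold with its whole interval, and the interval of PN-miR396b and c held it, while 25 of the 86 sequences (29.1%) were at or above it. The study applied the threshold to its own normalized reads. Scaled by the study's factors the log2 ratios were 2.90 for PN-miR396a-1 and 0.86 for PN-miR396b and c. Of the miR396 sequences the study listed only PN-miR396a-1 as differentially expressed.

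Scaling the libraries by other totals moves every log2 ratio by the same amount, and the median of the 86 log2 ratios was 0.25. With the summed reads of the deposited lists every log2 ratio was changed by -0.50, and the ratio of PN-miR396b and c was then 0.47 (adjusted exact binomial p = 0.00554). The ratio of PN-miR396a-1 was then 2.51. With this scaling 19 sequences were called higher and 36 lower, against 29 and 23 with the clean reads.

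**Figure D1:**
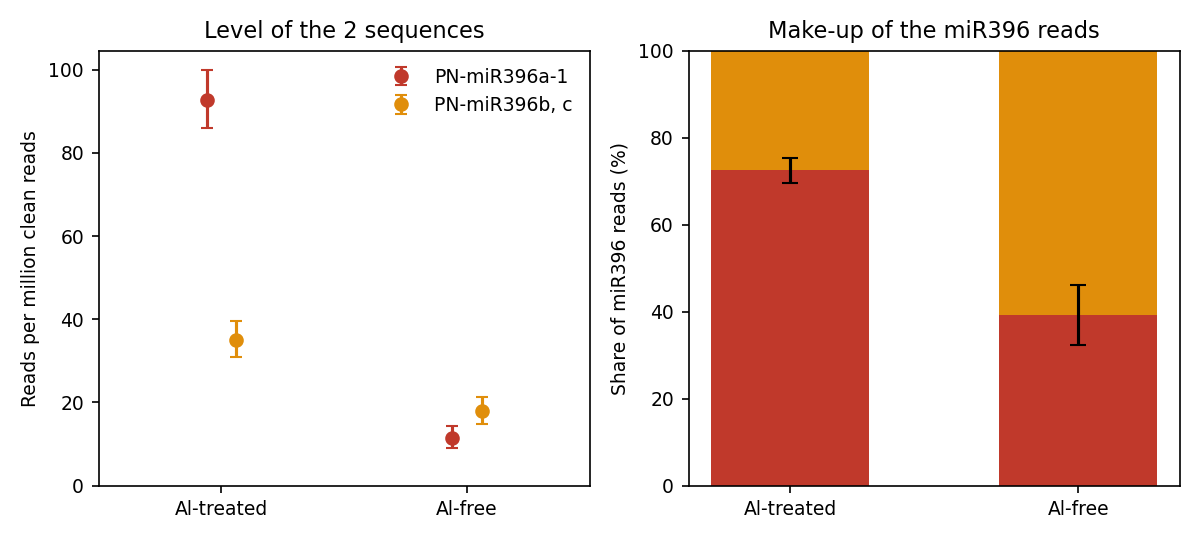
Left, level of the 2 miR396 variants, in reads scaled to 1000000 clean reads (RPM), for the Al-treated and the Al-free small RNA library, 1 library each, with 95% exact Poisson intervals. Right, the share of each sequence in the miR396 reads, with the 95% exact interval of the share of PN-miR396a-1, which was 72.6% in the Al-treated library and 39.1% in the Al-free library.

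Added together, the miR396 sequences had 931 reads in the Al-treated library and 207 reads in the Al-free library. The level of the sum was 4.34 times as high with Al, giving a log2 ratio of 2.12 (from 1.90 to 2.34). The deposited lists hold only part of the reads that the study counted as miRNAs, so shares and ranks by reads are over the listed sequences. Of all listed reads the family took 2.09% (from 1.96% to 2.23%) in the Al-treated library and 0.681% (from 0.591% to 0.780%) in the Al-free library. These shares depend on gso-miR2218, the most abundant sequence, which held 42.8% of the 44493 reads of the Al-treated list and 23.9% of the 30411 reads of the Al-free list. Without gso-miR2218 the family took 3.66% in the Al-treated library and 0.895% in the Al-free library.

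By reads, PN-miR396a-1 was number 12 of the 217 sequences in the Al-treated library and number 35 in the Al-free library. The sequence of PN-miR396b and c was number 22 in the Al-treated library and number 27 in the Al-free library. The lists held 14082 reads more in the Al-treated library, of which 11779 were the difference of gso-miR2218. Over the other sequences the net difference was 2303 reads. It is a net of gains and losses in unscaled reads, so that the gain of one family is not a share of it. For example, PN-miR1509b had 2232 and 190 reads in the Al-treated and Al-free library, and gso-mir2109-p3 had 1201 and 2655. The miR396 sequences differed by 724 reads, 595 of them from PN-miR396a-1 and 129 from PN-miR396b and c. The difference of PN-miR396a-1 was number 4 among the gains and number 6 by size in either direction.

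The ratio of PN-miR396a-1 was number 4 of the 86 tested. Above it stood PN-miR1520l, which rested on 19 reads in the Al-treated library and 1 in the Al-free library, with an interval of the log2 ratio from 1.54 to 9.57. Next came PN-miR1509b (listed as PNb-miR1509b), which had 2232 reads in the Al-treated and 190 in the Al-free library and a log2 ratio of 3.50 (from 3.29 to 3.72). PC-13-3p, a predicted candidate whose sequence the study's table gives as PN-miR403a, b, had 44 reads in the Al-treated and 5 in the Al-free library and a log2 ratio of 3.09 (from 1.76 to 4.78). Against PN-miR396a-1, the log2 odds ratio of the reads of PN-miR1509b was 0.49 (from 0.08 to 0.90), and its p in Fisher's exact test was 0.0169 and 0.0506 after adjustment over these 3 comparisons. These 3 comparisons were chosen after the values were seen. Those of PN-miR1520l (from -1.51 to 6.58) and PC-13-3p (from -1.31 to 1.81) had intervals that held 0, so that the order of these sequences was not settled beyond counting error. Among the 39 tested sequences with at least 100 reads over both libraries, PN-miR396a-1 was number 2, after PN-miR1509b, and the sequence of PN-miR396b and c was number 8.

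The 3 sequences nearest to PN-miR396a-1 in log2 ratio were PC-13-3p, PN-miR4369 (2.89, from 1.16 to 5.27, with 23 and 3 reads in the Al-treated and Al-free library) and PC-33-3p (2.81, from 1.30 to 4.78, with 29 and 4 reads). Nearest to PN-miR396b and c were PN-miR390a-1 (1.01, from -0.04 to 2.14, with 25 and 12 reads), PN-miR1515 (1.04, from 0.53 to 1.56, with 102 and 48 reads) and PN-miR393-2 (0.87, from 0.03 to 1.76, with 36 and 19 reads). Each likeness is a distance between ratios over 2 libraries. In all 6 cases the neighbour had fewer reads than the miR396 sequence and a wider interval.

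Ratios among sequences of the same length and first base as miR396 were close to those of all sequences. Of the 40 sequences of 21 nt that began with T, 26 were tested, and their median log2 ratio was 0.29, against 0.25 over all 86. Of the 26, 10 (38.5%) passed as higher with Al and 8 as lower, and both miR396 sequences were among the 10.

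**Figure D2:**
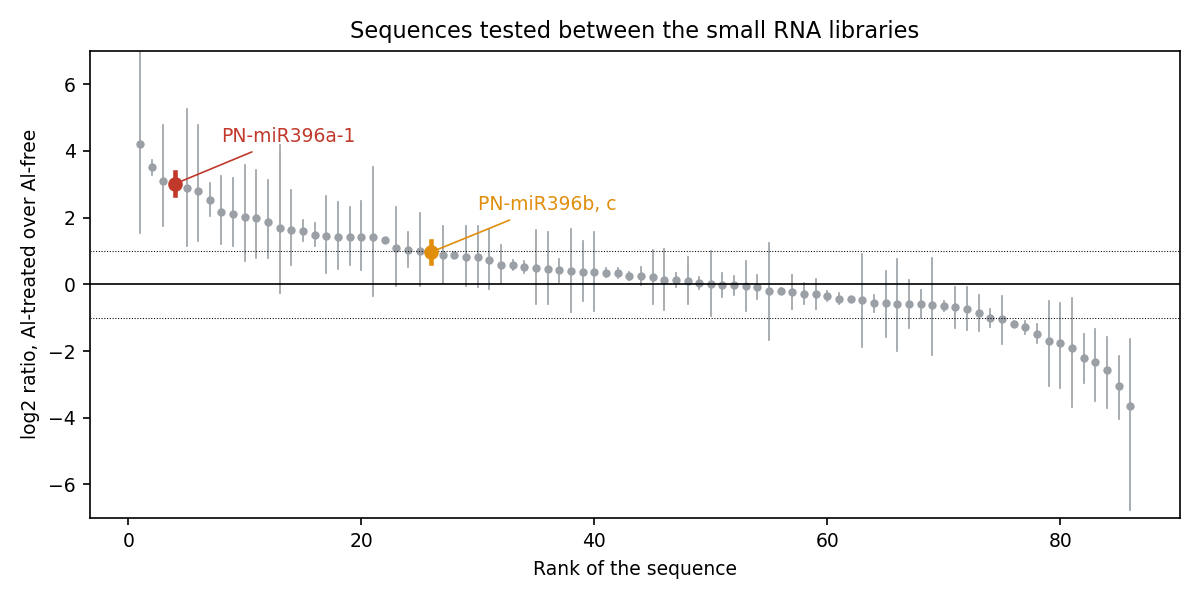
Log2 ratio of the level, Al-treated over Al-free, of the 86 tested sequences in order of their ratio, each with its 95% exact interval (intervals are clipped at the axis limits). Dotted lines mark log2 ratios of 1 and -1. PN-miR396a-1 (3.01) stands far above the upper dotted line, and PN-miR396b, c (0.97) lies just below it.

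Whether the variants rose by different amounts was tested directly on their reads, since this comparison does not depend on how the libraries are scaled. Of the miR396 reads, PN-miR396a-1 made up 72.6% with Al (95% exact interval from 69.6% to 75.5%) and 39.1% without (from 32.4% to 46.1%). The odds of a miR396 read ending in G rather than T were 4.12 times as high in the Al-treated library (from 2.98 to 5.72), a log2 odds ratio of 2.04 (from 1.57 to 2.52). In Fisher's exact test, two-sided, the adjusted p was 1.98e-18 over the 23 pairs of sequences that share a miRNA number and have at least 10 reads each in at least one library.

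Differences between sequences of the same number were common. Of the 23 pairs, 16 (69.6%) passed the same test, so that a call alone did not distinguish miR396. By the size of the log2 odds ratio miR396 was number 5 of the 23 pairs, whose median size was 1.46, and all the pairs ahead of it but that of gso-miR1509a and PN-miR1509b held a p3 or p5 strand, the opposite arm of a precursor. Among the 7 pairs without such a strand miR396 was number 2, and 5 of the 7 passed the test. The pairs of a family share sequences and are not independent of each other.

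In 4 of the 23 pairs the sequences had the same length and differed by 1 base, and 2 of the 4 passed the test. The pair of gso-miR1509a and PN-miR1509b, which differs by C21T in sequences of 22 nt, had a log2 odds ratio of -3.95 (from -4.18 to -3.73), so that PN-miR1509b rose relative to gso-miR1509a. PN-miR390b and PN-miR390a-1 differ by A19G and had a log2 odds ratio of 0.41 (from -1.10 to 1.91, adjusted exact p = 0.663), an interval that overlaps that of miR396. PN-miR160c and PN-miR160b differ by C15T and had a log2 odds ratio of -0.02 (from -0.57 to 0.54, adjusted exact p = 1), an interval that does not reach that of miR396. In each substitution the base of the first named sequence is given first.

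**Figure D3:**
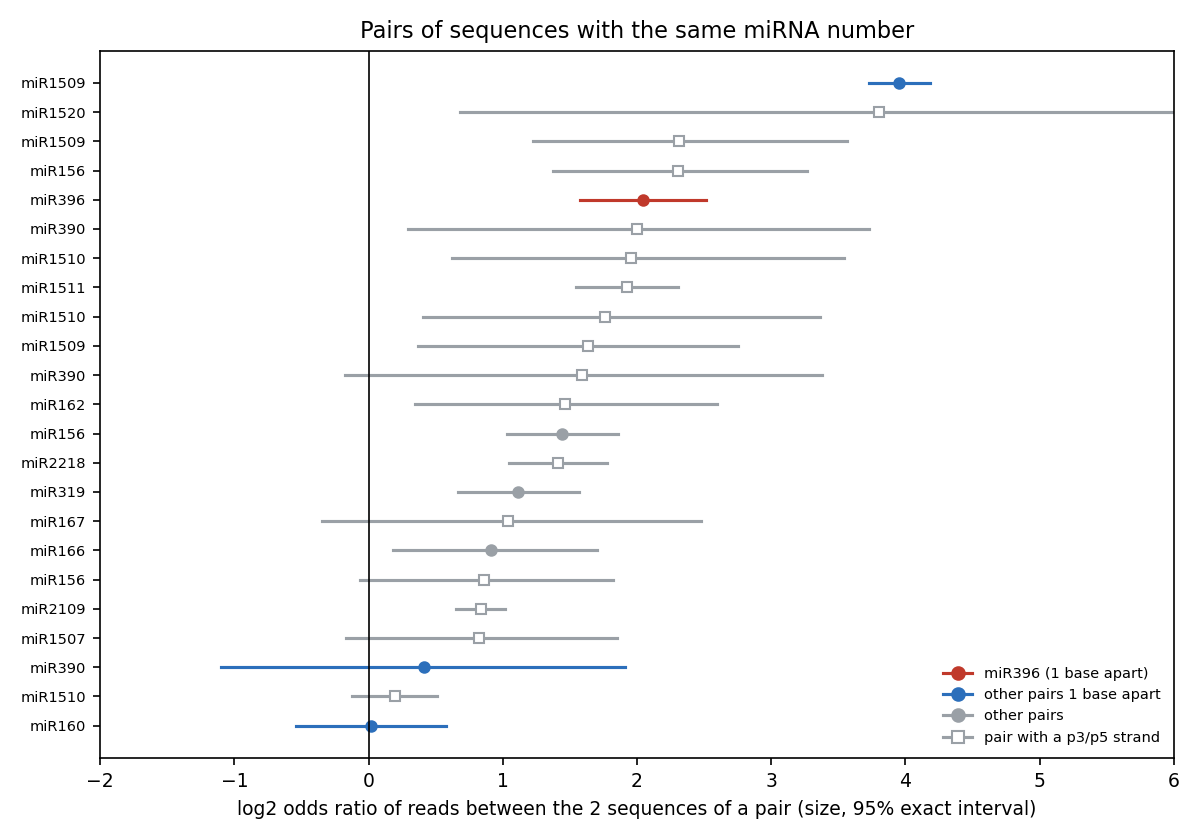
Size of the log2 odds ratio of reads (Al-treated against Al-free) between the sequences of each of 23 pairs with the same miRNA number, with 95% exact intervals clipped at the axis limits. Pairs follow the deposited names, so predicted candidates are left out. Filled points are pairs without a p3 or p5 strand, and the miR396 pair (2.04, red) follows the miR1509 pair (3.95, blue) among them.

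More growth regulating factor genes were listed as miR396 targets in the Al-treated degradome than in the Al-free degradome. The Al-treated list held 6 genes, which were Glyma01g44470, Glyma03g35010, Glyma11g01060, Glyma11g11820, Glyma12g01730 and Glyma19g37740. The Al-free list held 2 of them, Glyma03g35010 and Glyma19g37740. By the chromosome number within these Glycine max identifiers, the genes of both lists were on chromosomes 3 and 19, and those listed only in the Al-treated degradome were on chromosomes 1, 11 and 12, with 2 of the 4 on chromosome 11. No miR396 gene was listed only in the Al-free degradome, and none was listed for another miRNA number.

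The deposited lists hold no reads, so the strength of cleavage was not analysed here, and no test was made. Over all 78 target genes, with repeated lines counted once, 37 (47.4%) were listed only in the Al-treated degradome, 33 (42.3%) in both and 8 (10.3%) only in the Al-free degradome. Of the 6 miR396 genes 4 (66.7%) were listed only in the Al-treated degradome. An exact 95% interval of this share, which takes genes as independent, would run from 22.3% to 95.7% and holds the share over all genes. The Al-treated list was longer in all, with 70 genes against 41 in the Al-free list. By the study's totals the Al-treated degradome library had 0.941 times as many reads with the adaptor as the Al-free one. Whether depth bears on the lengths of the lists was not tested. In the Al-treated list 8 lines repeat the same miR1510 gene identifier and were counted once. The study describes the targets of this miRNA in the Al-treated library as different genes. By its account those found in the Al-free library were among them. Counting the repeated lines once therefore understates the Al-treated list. With each line taken as a gene of its own, an alternative chosen after the data were seen, the Al-treated list held 77 genes. With the 2 miR1510 genes of the Al-free list among them, 42 of 83 genes (50.6%) were then listed only in the Al-treated degradome. In that count 35 genes were in both lists and 6 only in the Al-free list. With neither of the 2 among them, 44 of 85 genes (51.8%) were listed only in the Al-treated degradome. In both counts miR1510 had 8 genes against 2. The count with the Al-free genes among them follows the study's description. The lists name the miRNA only as PN-miR396, so that targets could not be assigned to PN-miR396a-1 or to PN-miR396b and c.

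Among the 10 miRNA numbers or candidates with at least 4 listed targets, 8 had more targets in the Al-treated list and 2 had as many in each. The 10 leave out miR1510, whose repeated lines were counted once, although it had 8 genes against 2 with each line taken as a gene. The lengths of the lists did not follow the reads of the miRNA in the same way in all families. Each log2 ratio below is of the summed reads of a number, with its p3 and p5 strands. For miR396, 6 genes in the Al-treated list against 2 in the Al-free list went with a log2 ratio of the summed reads of 2.12. For miR169, whose targets are CCAAT-binding factors, 9 genes in the Al-treated list against 8 went with a log2 ratio of 1.51 (from 0.71 to 2.37), on 53 reads in the Al-treated and 18 in the Al-free library. For miR393, whose targets are F-box proteins, both lists held 5 genes at a log2 ratio of 0.95 (from 0.16 to 1.78). For miR319, whose targets are TCP and Myb factors, 10 genes against 4 went with a log2 ratio of 0.36 (from 0.21 to 0.52). This sum joins sequences that moved in opposite directions, PN-miR319a and b (log2 ratio 0.52) and PN-miR319 (-0.59). For miR160, whose targets are auxin response factors, 7 genes against 0 went with a log2 ratio of -0.28 (from -0.54 to -0.03), on 239 and 281 reads in the Al-treated and Al-free library. miR394 had 4 genes against 0, on only 2 and 3 reads.

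**Figure D4:**
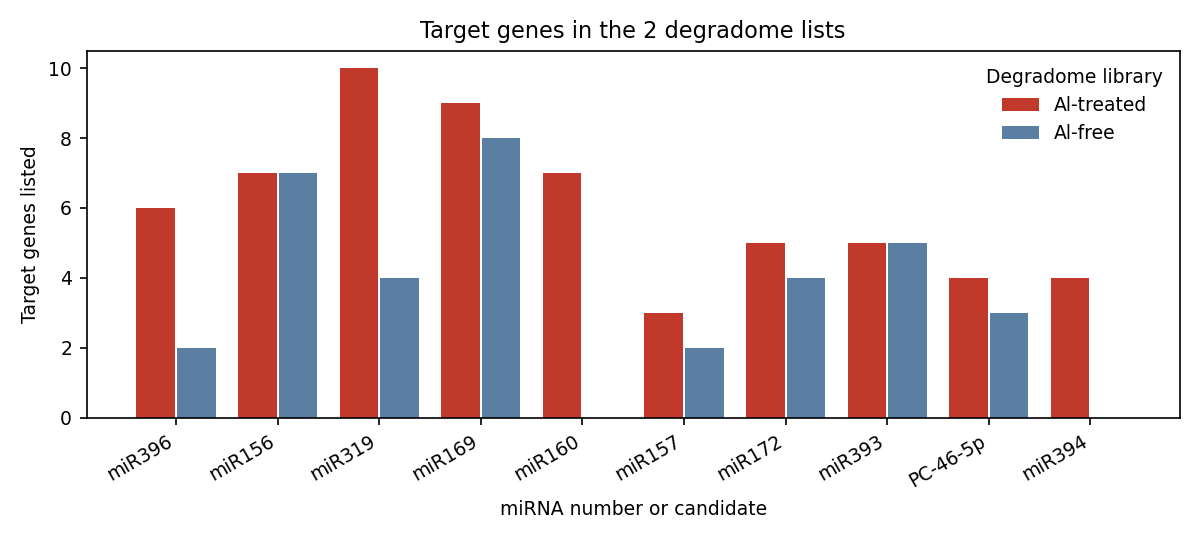
Target genes listed in the Al-treated and the Al-free degradome for each miRNA number or candidate with at least 4 listed targets, 1 library per condition. miR1510 is left out because its repeated lines were counted once. miR396, on the left, had 6 genes in the Al-treated list and 2 in the Al-free list, and miR160 and miR394 had none in the Al-free list.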

How the data were processed

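Small RNA and degradome libraries of Al-treated and Al-free wild soybean roots were compared, 1 library of each kind per condition. With ACGT101-miR 4.2 the authors discarded junk, short and adaptor-free reads. By the study's account the clean reads were compared with miRBase 18 (up to 2 mismatches) to find known miRNAs. Reads hitting mRNA, Rfam or repeat sequences were removed before miRNA prediction. The authors deposited raw read counts per miRNA name and sequence, without normalization. The deposited degradome lists hold miRNA names and gene identifiers with no value, called by the authors with CleaveLand 3.0 and ACGT301-DGE 1.0 on Glycine max transcripts.

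Each distinct sequence was counted once, and counts were scaled by the clean reads that the study gives for each library (a ratio of 1.04, Al-treated over Al-free), since the listed reads were 0.611% of the clean reads in the Al-treated library and 0.432% in the Al-free library. Log2 ratios were tested by an exact binomial test, two-sided, and given Clopper-Pearson 95% intervals, pairs of sequences were compared with Fisher's exact test, and p-values were adjusted by Benjamini and Hochberg (called under 0.05). SciPy 1.17.1, NumPy 2.4.6, matplotlib 3.10.9 and Python 3.11.15 were used, and the procedure was tested on simulated counts. The simulated counts held counting error only, at the depth ratio used for scaling. They had no variation between plants or libraries, so they cannot show how the calls would hold in replicates. Named sequences were all miR396 members, the 3 tested sequences nearest to each in log2 ratio, those above the highest one, and pairs that differ by 1 base. Names are those of the deposited lists. The members and lists were chosen with earlier results of these data known. Other scalings, read minimums, a pseudocount of 1 read and Fisher's exact test were tried as alternatives. The qRT-PCR data were not analysed here. The study reports that its qRT-PCR fold changes were much lower than those from sequencing. By its account the pattern was similar for most but not all of the miRNAs chosen for qRT-PCR. None of the 78 target identifiers matched the 59365 genes of the RefSeq table of Glycine soja (0 matched), so target positions and sequences are not given.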

Additional observations from a re-analysis of the deposited data

How the results depend on the processing

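All 6 alternatives for each miR396 sequence kept the direction and an adjusted exact p under 0.05. The log2 ratio of PN-miR396a-1 ran from 2.51 to 3.01, that of PN-miR396b and c from 0.47 to 0.97, and over 4 scalings that of their sum from 1.62 to 2.12. With a pseudocount of 1 read the log2 odds ratio of the pair was 2.03. The share of targets listed only in the Al-treated degradome was 66.7% for miR396 under both other ways of counting. Of 34 alternatives in all, 3 moved a total count of calls by more than 1.5 times. With a minimum of 50 reads, 34 sequences were called in place of 52. By direction, 19 were called higher and 36 lower when scaled by the summed listed reads, 18 were called higher with the minimum required in both libraries, and 16 with a minimum of 50 reads, in place of 29 higher and 23 lower. For pairs, 8 were called with a minimum of 50 reads and 5 without p3 and p5 strands, in place of 16, where fewer pairs could be tested (10 and 7 in place of 23). The miR396 pair was called in each. Depth limits PN-miR396a-1 most in the Al-free library, with 81 reads. No library could be left out and no paired analysis was possible because each condition had 1 library of each kind.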
